A study of Mus musculus with 13 samples.

Results

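Interferon response genes of the mouse heart were taken as the gene entries whose symbol belongs to a set of interferon-regulated families: the interferon regulatory factors (Irf) and STAT factors of the pathway, the Ifit, Ifitm, Ifi, Isg and Oas genes, Mx1 and Mx2, the guanylate-binding proteins (Gbp), the immunity-related GTPases Irgm1, Irgm2, Igtp and Iigp1, and Rsad2, Usp18, Ifih1, Ddx58 and Rnf213. By this rule 69 of 35793 gene entries were members, and 57 of them had enough reads to be tested. The choice went by symbol alone, so a single member need not itself be induced by interferon. Expression was measured by RNA sequencing in left ventricle outside the ischaemic zone of C57BL/6JO1aHsd mice, 8 to 10 weeks old when treatment began. In 5 libraries the mice had a permanent ligation of the left anterior descending coronary artery (LAD), which causes a myocardial infarction (MI), and received 10 mg/kg FG-3149, a mouse monoclonal antibody against connective tissue growth factor (CTGF); this group is called MI+FG-3149. In 5 libraries the ligation was combined with 10 mg/kg of an antibody that the labels call mouse anti IgG ab (MI+IgG), and 3 libraries came from sham surgery with no treatment (Sham). All groups carried the same time label, 1W+6W, which the labels do not spell out.

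Interferons are cytokines that bind surface receptors and, through the kinases Jak1, Jak2 and Tyk2, activate transcription factors of the STAT family. Type I interferons act through a complex of STAT proteins and IRF9 on the interferon-stimulated response element (ISRE), and type II interferon (interferon-gamma) acts through STAT dimers on the gamma-activated site (GAS). In an injured heart the interferon response is known above all from macrophages and other leukocytes that take up nucleic acids of dead cells, and many members are also expressed at a basal level in endothelial cells, fibroblasts and muscle cells.

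The DNA elements named above are written in the promoters of many members, and the following windows are shown because they come from the families on which the results turn. The RefSeq promoter table (GRCm38.p6, 250 bases before to 50 bases after each gene's start) held 49 of the 69 members. The ISRE core, searched as GAAA and GAAA with any 2 bases between them, and as TTTC and TTTC with any 2 bases between them for the other strand, was in 24 of these 49 promoters (49.0%), against 1079 of 27025 promoters of all genes (3.99%). The GAS letters TTCNNNGAA, which read the same on both strands, were in 14 of 49 (28.6%), against 9.55% of all promoters, and 7 members held both. Each window is read 5′ to 3′ on the gene's strand, and capitals mark the match:
ISRE in Gbp2, chr3:142620589-142620628, plus strand: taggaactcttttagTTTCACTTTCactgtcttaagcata
ISRE in Gbp7, chr3:142530268-142530307, plus strand: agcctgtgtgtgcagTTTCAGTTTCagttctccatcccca
ISRE in Igtp, chr11:58199507-58199546, plus strand: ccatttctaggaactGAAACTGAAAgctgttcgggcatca
ISRE in Irgm2, chr11:58214898-58214937, plus strand: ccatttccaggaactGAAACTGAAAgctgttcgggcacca
ISRE in Ifit1, chr19:34640770-34640809, plus strand: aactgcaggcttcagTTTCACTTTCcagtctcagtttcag
ISRE in Ifit3, chr19:34583358-34583397, plus strand: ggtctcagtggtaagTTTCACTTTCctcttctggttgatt
ISRE in Isg15, chr4:156200866-156200905, minus strand: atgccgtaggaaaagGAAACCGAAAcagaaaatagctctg
ISRE in Ifitm2, chr7:140955983-140956022, minus strand: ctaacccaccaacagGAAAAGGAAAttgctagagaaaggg
GAS in Irf1, chr11:53769909-53769947, plus strand: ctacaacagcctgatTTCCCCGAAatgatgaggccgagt
GAS in Irf8, chr8:120736172-120736210, plus strand: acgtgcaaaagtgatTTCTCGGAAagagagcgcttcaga
The windows of Igtp and Irgm2, neighbouring GTPase genes on chromosome 11, were the same at 38 of 40 bases. Ifit1 and Ifit3 each held 2 separate ISRE matches, and Isg15 held 3 that overlap one another. The promoter of Ifit2 held a GAS match but no ISRE match. The ISRE letters were in 8 of the 9 GTPase promoters in the table. They were in 5 of 12 promoters of the members that were higher with MI+IgG than with Sham, against 18 of 29 of the tested members that were not higher. A match of letters is a description of the window and is neither a mapped binding site nor a cause of the values below.

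Of the 12 members that were not tested, Rnf213 was listed at 0 in all libraries and had no transcript entry, and it was not analysed here. The other 11 (Gbp1, Gbp11, Ifi202b, Ifi27l2b, Ifitm5, Ifitm6, Ifitm10, Oas1d, Oas1e, Oas1f and Oas1h) reached at most 12 counts in any library. Library totals were 10954901 to 12794791 counts for MI+FG-3149, 13084651 to 17567207 for MI+IgG and 12025845 to 14999773 for Sham, and the totals of MI+FG-3149 and MI+IgG did not overlap. The ribosomal precursor Rn45s took 0.199% to 2.86% of counts in MI+FG-3149, 0.673% to 1.94% in MI+IgG and 0.276% to 0.334% in Sham. Per transcript length, the members with the highest mean level over the 13 libraries were the membrane proteins Ifitm3 (119.6 RPKM, reads scaled to transcript length and library depth) and Ifitm2 (96.4 RPKM), followed by Ifi27l2a (52.9 RPKM), Iigp1 (32.3 RPKM) and Ifi27l1 (26.3 RPKM). At the low end per transcript length were Gbp8 (0.463 RPKM) and Irf4 (0.497 RPKM). Ifitm7 was inside the filter on low counts, with a mean of 1.04 CPM (counts scaled to library size, with TMM factors), and Ifitm10 was just outside it, with 0.528 CPM.

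The comparison of MI+IgG with Sham asked what infarction changed in ventricle away from the ischaemic zone; because Sham mice were untreated, the ligation and the control antibody cannot be told apart. In MI+IgG hearts 15 of 57 tested members were higher, 1 was lower and 41 did not pass an adjusted p of 0.05 (edgeR quasi-likelihood test, adjusted over all 13434 genes tested). The 16 called members are 28.1% of those tested, while 33.7% of all genes were called, 17.8% higher and 15.9% lower. The share called was thus not above that of all genes, while the direction among the called members was nearly all upward. The median log2 fold change was 0.21 over the members and 0.00 over all genes. The libraries of MI+IgG lay wholly above those of Sham for 16 members, against 18.2% of all genes, and wholly below for 2, against 17.7%. In bulk tissue, more or fewer cells of a type and more or less RNA per cell cannot be told apart, which holds for every value given here.

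**Figure D1:**
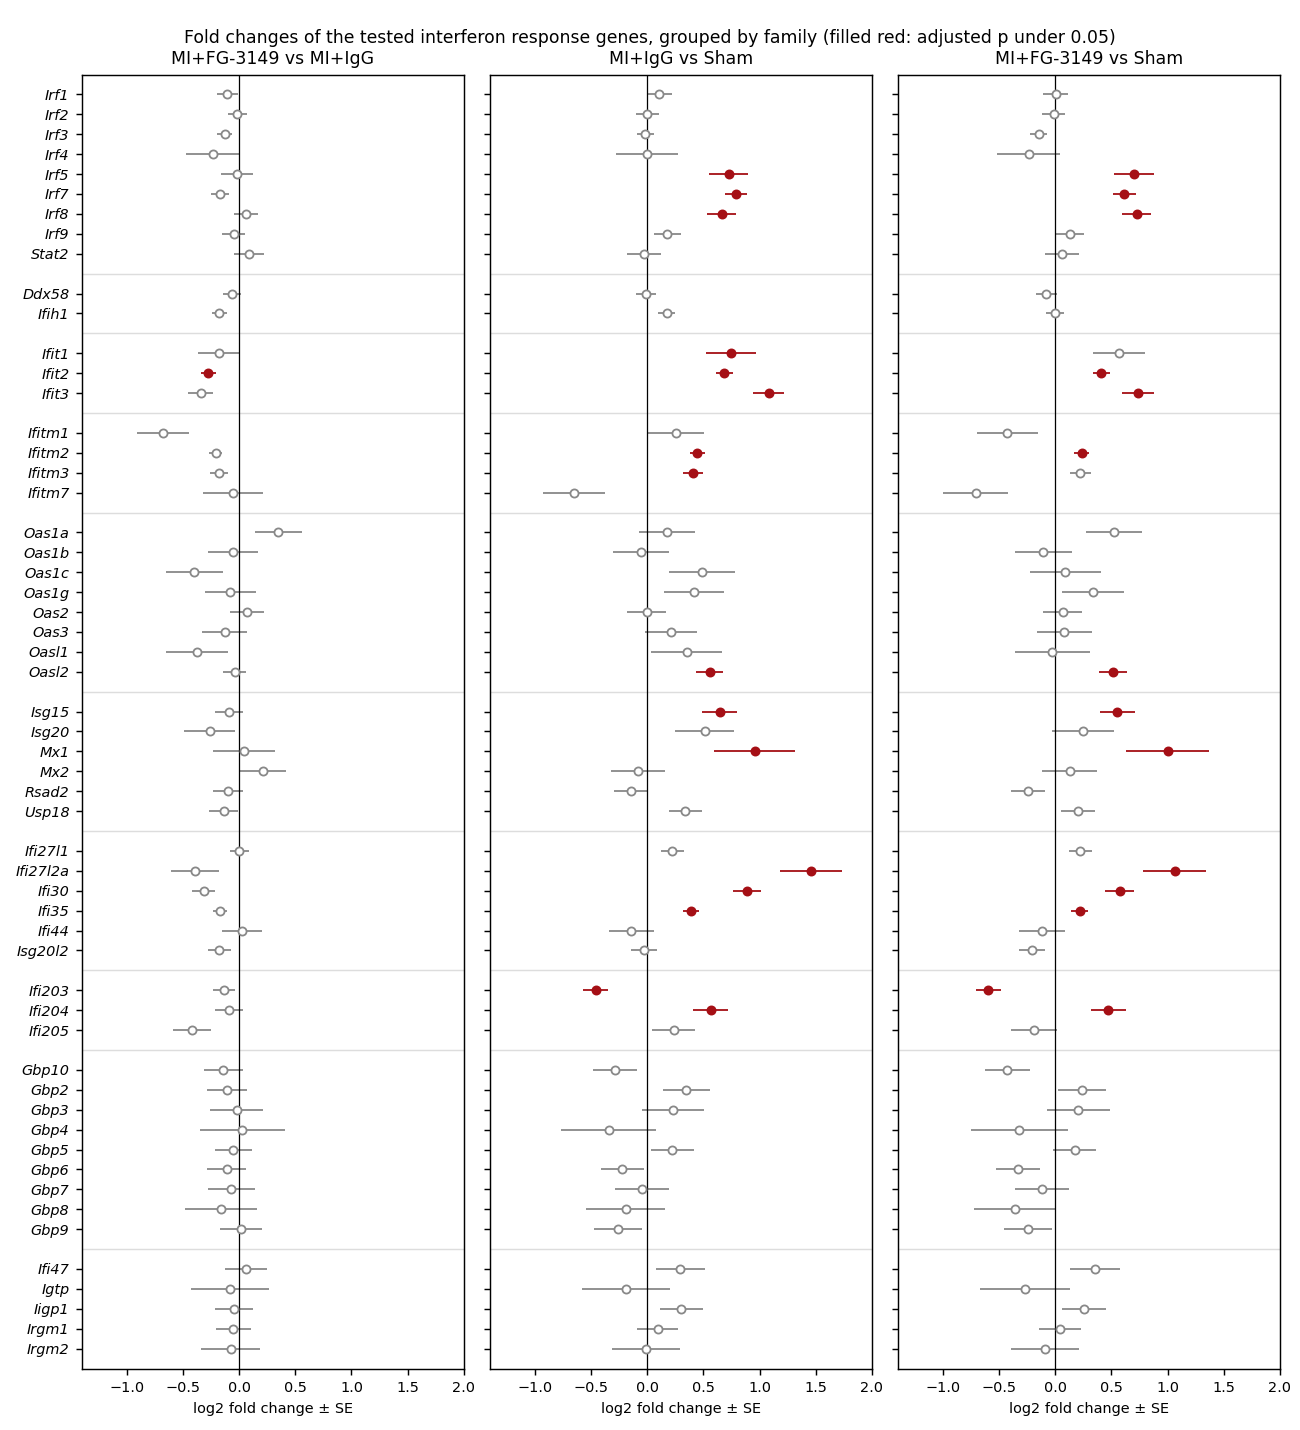
Log2 fold change ± SE (edgeR) of 55 tested members in 3 comparisons, with families set apart by lines and filled red points for an adjusted p under 0.05. Called members sit right of 0 in both comparisons with Sham except Ifi203, the GTPase families at the bottom hold no called member, and Ifit2 is the only called member between MI+FG-3149 and MI+IgG.

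Among the transcription factors, 3 of 11 were higher in MI+IgG hearts and 0 lower. Irf7, the factor that amplifies type I interferon production (chromosome 7, 141263183 to 141266424, in the mm10 coordinates of the deposited counts), had 21.7, 22.0, 18, 21.3 and 20.4 CPM in MI+IgG libraries, against 11.5, 12.3 and 11.9 CPM in Sham libraries. Every MI+IgG library was above every Sham library, a fold change of 1.73 (log2 0.79 ± 0.10 SE, adjusted p = 9.49e-06). Irf8, which directs the development of monocytes and dendritic cells (chromosome 8, 120736376 to 120756692), had 8.93, 9.74, 10.1, 9.96 and 9.37 CPM in MI+IgG libraries, against 6.84, 5.49 and 5.97 CPM in Sham libraries. The groups did not overlap (log2 0.66 ± 0.13, adjusted p = 0.00061). Irf5, which acts downstream of Toll-like receptors in macrophages (chromosome 6, 29526625 to 29537320), had 5.16, 6.64, 8.20, 6.07 and 7.07 CPM in MI+IgG libraries, against 4.45, 3.73 and 3.90 CPM in Sham libraries. MI+IgG replicate 1 was the nearest to Sham, and the groups did not overlap (log2 0.72 ± 0.18, adjusted p = 0.0038).

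Further factors that carry the interferon signal did not pass the test. Stat2, a factor of the type I response (chromosome 10, 128270576 to 128292849), had 37.3, 27.1, 25.1, 29.5 and 26.7 CPM in MI+IgG libraries, against 26.0, 28.4 and 34.7 CPM in Sham libraries, with overlap and MI+IgG replicate 1 the highest of its group (log2 -0.03, 95% interval -0.32 to 0.26). Irf9, the DNA-binding subunit of the type I complex, averaged 26.8 ± 3.54 CPM in MI+IgG and 23.6 ± 4.38 CPM in Sham (SD, n = 5 and 3; log2 0.18, 95% interval -0.06 to 0.42). Irf1, an early target of interferon-gamma, averaged 37.6 ± 4.96 CPM in MI+IgG and 34.9 ± 3.66 CPM in Sham (log2 0.11, 95% interval -0.11 to 0.32). The upper bound for Irf9 lies above the log2 fold change of the least changed member that rose, Ifi35 (0.39), and none of these p-values shows that the levels were equal. Irf2, an antagonist of Irf1, averaged 22.2 ± 2.72 CPM in MI+IgG and 22.2 ± 1.72 CPM in Sham, and Irf3, which starts the first wave of interferon production, 30.1 ± 0.827 CPM in MI+IgG and 30.5 ± 1.98 CPM in Sham. Irf4, a lymphocyte factor, averaged 2.45 ± 0.242 CPM in MI+IgG and 2.49 ± 1.27 CPM in Sham.

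Both cytosolic RNA sensors among the members stayed below the threshold. Ifih1 (MDA5, a sensor of long double-stranded RNA) had 17.6, 17.0, 16.7, 16.5 and 17.4 CPM in MI+IgG libraries, against 14.9, 15.6 and 14.8 CPM in Sham libraries. The groups did not overlap, but the difference was small (log2 0.17 ± 0.07, adjusted p = 0.0802). Ddx58 (RIG-I) averaged 25.4 ± 2.81 CPM in MI+IgG and 25.7 ± 0.663 CPM in Sham (SD, n = 5 and 3; log2 -0.01).

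The IFIT proteins bind foreign RNA and block its translation, and their genes lie side by side on chromosome 19. All 3 IFIT members were higher in MI+IgG hearts. Ifit3 (chromosome 19, 34583529 to 34588982) had 21.3, 27.1, 20.4, 24.4 and 27.3 CPM in MI+IgG libraries, against 12.7, 9.35 and 12.3 CPM in Sham libraries. It rose 2.12-fold without overlap between the groups (log2 1.08 ± 0.14, adjusted p = 1.76e-05). Ifit2 (chromosome 19, 34550694 to 34576534) had 33.6, 33.8, 29.9, 33.8 and 33.5 CPM in MI+IgG libraries, against 20.9, 21.3 and 19.1 CPM in Sham libraries. MI+IgG replicate 3 was the lowest of its group and still well above Sham, and the adjusted p of 3.59e-06 was the smallest of all members (log2 0.69 ± 0.08). Ifit1 (chromosome 19, 34640889 to 34650009) had 11.4, 13.2, 7.45, 10.3 and 13.6 CPM in MI+IgG libraries, against 5.72, 6.98 and 7.21 CPM in Sham libraries. MI+IgG replicate 3 lay close to Sham (log2 0.75 ± 0.23, adjusted p = 0.0196), and the call was lost without Sham replicate 1 or without Sham replicate 2 (adjusted p over all alternatives 0.00339 to 0.0902).

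The IFITM proteins sit in membranes and hinder the entry of enveloped viruses, and 2 of 4 tested genes were higher. Ifitm3 (chromosome 7, 141009590 to 141010744) had 91.7, 98.1, 83.1, 84.8 and 74.2 CPM in MI+IgG libraries, against 61.2, 68.9 and 65.3 CPM in Sham libraries. The groups did not overlap (log2 0.41 ± 0.09, adjusted p = 0.00296). Its neighbour Ifitm2 (chromosome 7, 140954839 to 140955961) had 62.2, 77.6, 64.7, 71.6 and 64.8 CPM in MI+IgG libraries, against 48.7, 51.5 and 49.97 CPM in Sham libraries. The lowest MI+IgG library was replicate 1, again above every Sham library (log2 0.45 ± 0.07, adjusted p = 7.20e-05). Ifitm1, of the same cluster, averaged 3.69 ± 0.924 CPM in MI+IgG and 3.05 ± 1.01 CPM in Sham (SD, n = 5 and 3; log2 0.25). Ifitm7, on chromosome 16, averaged 0.928 ± 0.172 CPM in MI+IgG and 1.47 ± 0.388 CPM in Sham and was the other member with all MI+IgG libraries below Sham besides Ifi203 (log2 -0.65 ± 0.28, adjusted p = 0.0768).

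The oligoadenylate synthetases detect double-stranded RNA and make the activator of the nuclease RNase L. Of 8 tested, only Oasl2 (chromosome 5, 114896934 to 114912245) was higher, with 17.5, 19.0, 16.3, 19.2 and 16.4 CPM in MI+IgG libraries, against 12.6, 11.6 and 11.9 CPM in Sham libraries. The groups did not overlap (log2 0.55 ± 0.12, adjusted p = 0.00198). Oas1a had 3.78, 3.27, 3.61, 3.24 and 3.00 CPM in MI+IgG libraries, against 2.23, 3.18 and 3.56 CPM in Sham libraries, which overlapped (log2 0.18 ± 0.25). Oas2 averaged 18.3 ± 2.93 CPM in MI+IgG and 18.3 ± 3.15 CPM in Sham (SD, n = 5 and 3), and the other 5 (Oas1b, Oas1c, Oas1g, Oas3 and Oasl1) had log2 fold changes between -0.05 and 0.49, each with an adjusted p above the threshold.

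Among the ISG15 system and single effectors, Isg15 and Mx1 were higher and 4 did not pass. Isg15, a ubiquitin-like protein that is attached to other proteins (chromosome 4, 156199424 to 156200818), had 6.97, 7.55, 5.10, 7.84 and 6.61 CPM in MI+IgG libraries, against 4.45, 4.54 and 4.06 CPM in Sham libraries. The groups did not overlap (log2 0.64 ± 0.15, adjusted p = 0.00321). Usp18, the protease that removes ISG15 and damps the type I receptor, had 7.41, 7.71, 6.02, 6.13 and 5.76 CPM in MI+IgG libraries, against 5.09, 4.67 and 5.97 CPM in Sham libraries, with overlap (log2 0.34 ± 0.15, adjusted p = 0.0857). Mx1, a dynamin-like antiviral GTPase whose allele is defective in C57BL/6 mice, had 0.944, 2.08, 1.26, 2.36 and 2.0 CPM in MI+IgG libraries, against 0.954, 0.813 and 0.912 CPM in Sham libraries. MI+IgG replicate 1 lay within Sham. Mx1 rests on few reads and passed narrowly (log2 0.96 ± 0.36, adjusted p = 0.0472), and it failed in 16 of 24 alternatives (adjusted p 0.0161 to 0.144). Rsad2 (viperin, an enzyme that makes a chain terminator of viral RNA synthesis) had 42.0, 29.8, 26.6, 29.6 and 26.5 CPM in MI+IgG libraries, against 29.6, 34.7 and 38.0 CPM in Sham libraries. It overlapped and pointed down (log2 -0.14 ± 0.15, adjusted p = 0.493). Mx2 and the exonuclease gene Isg20 had log2 fold changes of -0.08 and 0.51.

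The largest upward change of any member was in Ifi27l2a, a small hydrophobic protein (chromosome 12, 103442167 to 103443680). It had 23.8, 38.9, 33.1, 28.9 and 35.9 CPM in MI+IgG libraries, against 11.7, 10.7 and 12.8 CPM in Sham libraries. It rose 2.75-fold (log2 1.46 ± 0.27, adjusted p = 0.0019), and the groups did not overlap. Its chromosome 12 neighbour Ifi27l1 averaged 28.4 ± 2.77 CPM in MI+IgG and 24.4 ± 4.54 CPM in Sham, with overlap (log2 0.22 ± 0.10, adjusted p = 0.102). Ifi30, a lysosomal thiol reductase that prepares antigens for presentation (chromosome 8, 70762773 to 70766663), had 7.99, 8.95, 9.17, 10.1 and 9.30 CPM in MI+IgG libraries, against 4.61, 5.22 and 4.89 CPM in Sham libraries. It rose 1.85-fold without overlap (log2 0.89 ± 0.13, adjusted p = 3.68e-05). Ifi35, a leucine-zipper protein that pairs with NMI (chromosome 11, 101448412 to 101458701), had 22.0, 23.6, 24.3, 24.9 and 24.9 CPM in MI+IgG libraries, against 18.3, 18.3 and 18.2 CPM in Sham libraries. The change was small and the spread smaller still (log2 0.39 ± 0.07, adjusted p = 0.000491). Ifi44 and Isg20l2 had log2 fold changes of -0.14 and -0.03 and did not pass.

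The IFI200 genes encode nucleic acid binding proteins and form a cluster on chromosome 1 in which neighbours went opposite ways. Ifi203 (chromosome 1, 173920403 to 173942492) had 66.4, 46.7, 51.4, 63.8 and 50.3 CPM in MI+IgG libraries, against 75.9, 75.9 and 77.9 CPM in Sham libraries. It was the one member that fell, by 0.46 on the log2 scale (SE 0.11, adjusted p = 0.00503), and the groups did not overlap. Ifi204, a cytosolic DNA sensor (chromosome 1, 173747294 to 173766919), had 13.7, 9.91, 11.6, 10.3 and 11.7 CPM in MI+IgG libraries, against 7.39, 7.59 and 8.20 CPM in Sham libraries. It rose without overlap (log2 0.56 ± 0.15, adjusted p = 0.0086). Ifi205 averaged 7.30 ± 1.39 CPM in MI+IgG and 6.21 ± 1.82 CPM in Sham (SD, n = 5 and 3; log2 0.23, adjusted p = 0.379). The genes of this cluster, and likewise the Oas1 and Gbp genes, resemble one another in sequence, so reads may have been divided between copies in a way that the sources used here do not describe.

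**Figure D2:**
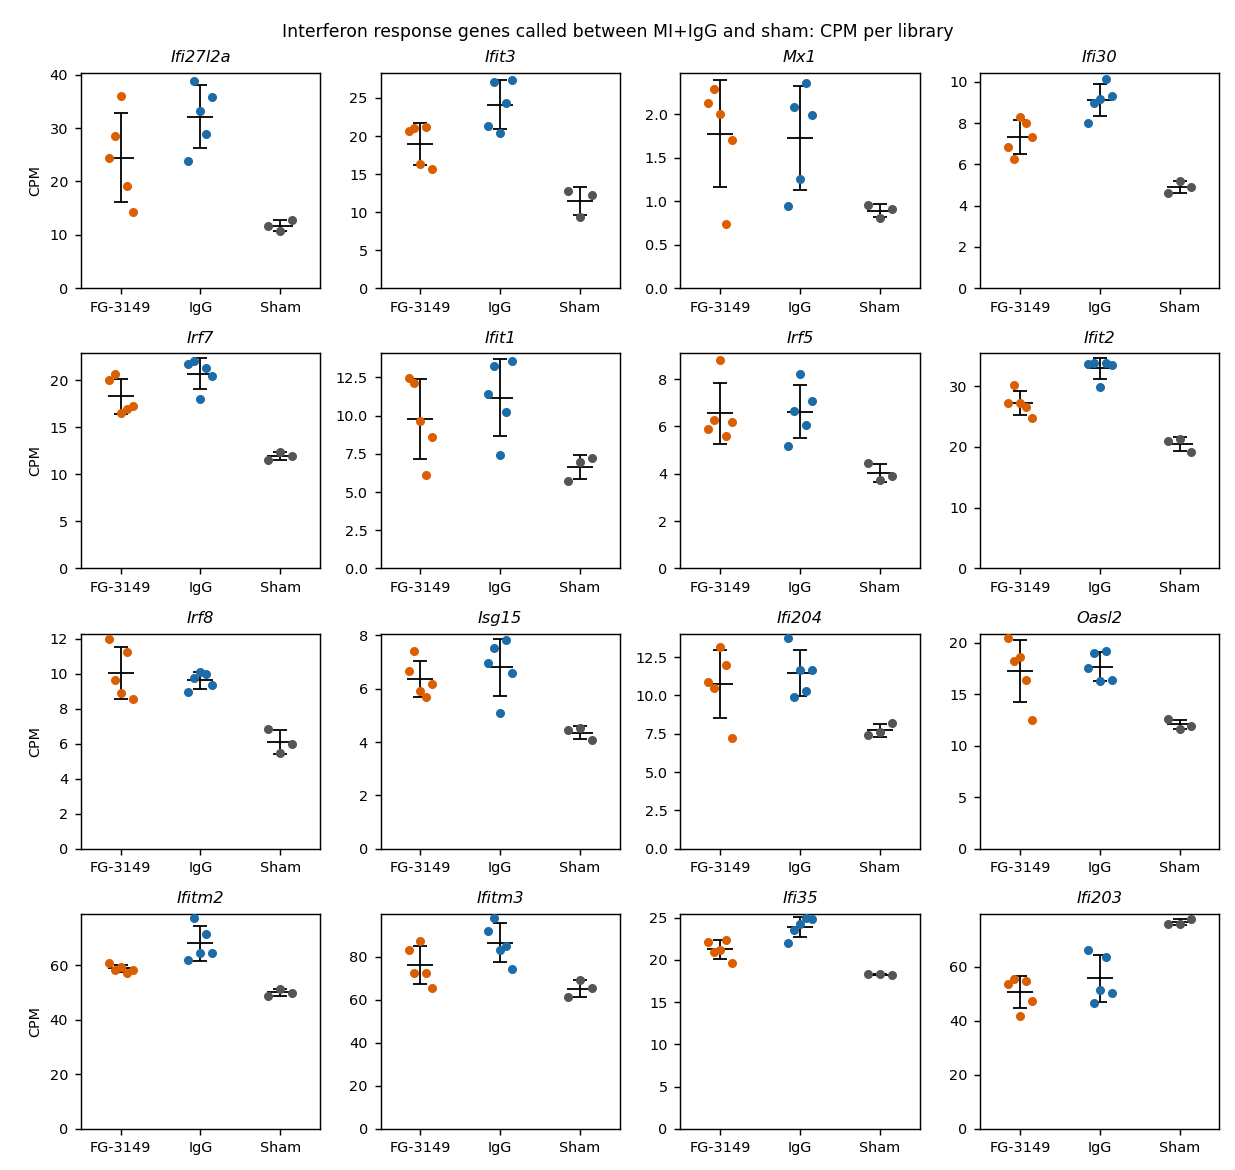
CPM per library of the 16 members called between MI+IgG and Sham (1 point per library, horizontal line for the mean, bars for the SD; n = 5, 5 and 3), with each axis starting at 0. Ifi203 is the one panel with Sham on top, and Mx1 is the one panel in which an MI+IgG library reaches down into Sham.

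MI+FG-3149 hearts were compared with the same Sham libraries, so this comparison is not independent of the previous one. Of 57 tested members 13 were higher, 1 was lower and 43 did not pass, together 24.6%, while 29.5% of all genes were called, 15.6% higher and 13.9% lower. The median log2 fold change was 0.09 over the members and 0.00 over all genes. The members called were those called with MI+IgG except Ifit1 and Ifitm3. Ifit1 had 12.5, 12.1, 9.64, 6.14 and 8.62 CPM in MI+FG-3149 libraries, with replicate 4 within the Sham range (log2 0.57 ± 0.23, adjusted p = 0.0783). Ifitm3 had 82.9, 72.6, 87.1, 72.6 and 65.4 CPM in MI+FG-3149 libraries and also overlapped Sham (log2 0.22 ± 0.09, adjusted p = 0.0841).

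For the members called in both comparisons with Sham, the values of the MI+FG-3149 libraries were as follows. Irf7 had 20.004, 20.6, 16.6, 16.9 and 17.2 CPM (log2 0.62 ± 0.10, adjusted p = 0.000207), Irf8 had 12, 9.62, 8.92, 11.3 and 8.54 CPM (log2 0.72 ± 0.13, adjusted p = 0.000483) and Irf5 had 5.90, 6.26, 8.82, 5.58 and 6.18 CPM (log2 0.70 ± 0.18, adjusted p = 0.00662). All 5 libraries were above Sham for each of these factors, and for Irf5 replicate 3 stood apart upward. Ifit2 had 27.2, 30.2, 27.3, 26.5 and 24.7 CPM and Ifit3 had 20.7, 21.1, 16.4, 21.2 and 15.6 CPM, both above Sham in every library (log2 0.41 ± 0.08 and 0.74 ± 0.14; adjusted p = 0.000799 and 0.000986). Ifi30 had 6.84, 6.26, 8.28, 8.00 and 7.32 CPM, with no overlap (log2 0.57 ± 0.13, adjusted p = 0.00308). Ifi203 fell by 0.60 on the log2 scale (SE 0.11, adjusted p = 0.00118), with 53.8, 55.5, 41.7, 54.6 and 47.2 CPM in MI+FG-3149 libraries, all under Sham.

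Ifi27l2a spread widely in MI+FG-3149 hearts, with 24.4, 28.5, 35.9, 19.2 and 14.3 CPM. Replicate 5 was close to Sham and replicate 3 nearly as high as the highest MI+IgG library (log2 1.06 ± 0.28, adjusted p = 0.015). Oasl2 had 20.4, 18.3, 18.6, 16.4 and 12.5 CPM, with replicate 5 within the Sham range (log2 0.52 ± 0.13, adjusted p = 0.0048), and Ifi204 had 10.9, 10.5, 13.2, 12 and 7.24 CPM, with replicate 5 below all Sham libraries (log2 0.47 ± 0.16, adjusted p = 0.0304). Isg15 had 6.67, 7.41, 5.91, 5.68 and 6.18 CPM (log2 0.55 ± 0.16, adjusted p = 0.0127), Ifitm2 had 61.0, 58.4, 59.6, 57.3 and 58.4 CPM (log2 0.23 ± 0.07, adjusted p = 0.015) and Ifi35 had 22.1, 21.0, 21.2, 22.3 and 19.6 CPM (log2 0.22 ± 0.07, adjusted p = 0.0348). None of these last 3 overlapped Sham. Mx1 had 2.14, 2.29, 2.0, 0.744 and 1.71 CPM, with replicate 4 below all Sham libraries (log2 1.00 ± 0.37, adjusted p = 0.0474). Of the 14 calls against Sham, 8 held in each of the 24 alternatives; those of Ifi204, Ifi27l2a, Ifi35, Ifitm2, Isg15 and Mx1 were lost in at least 1.

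The comparison of MI+FG-3149 with MI+IgG asked what the antibody changed in infarcted hearts. It shares the MI+IgG libraries with the comparison of MI+IgG with Sham. Of 57 tested members 0 were higher, 1 was lower (1.75% called in all) and 56 did not pass, while 1.07% of all genes were called, 0.916% higher and 0.156% lower. DESeq2 and limma-voom likewise called 0 members higher and 1 lower. The share called is near that of all genes. The log2 fold change was negative for 44 members and positive for 13, while it was positive for 45.9% of all genes. The median was -0.09 over the members and -0.01 over all genes. An unadjusted p under 0.05 was reached by 10 members, all of them lower in MI+FG-3149, and the share of all genes at that level was not counted. The members are not independent of one another, and no test was made over the list.

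The member called was Ifit2, with 27.2, 30.2, 27.3, 26.5 and 24.7 CPM in MI+FG-3149 libraries, against 33.6, 33.8, 29.9, 33.8 and 33.5 CPM in MI+IgG libraries. The highest MI+FG-3149 library, replicate 2, was just above the lowest MI+IgG library, replicate 3, so the groups overlapped. Ifit2 fell by 0.28 on the log2 scale (SE 0.06, adjusted p = 0.0443), and it missed the threshold in 15 of 24 alternatives (adjusted p 0.0174 to 0.146), among them the omission of any single library other than MI+FG-3149 replicate 2 or MI+IgG replicate 3. The next member by p was Ifitm2, with 61.0, 58.4, 59.6, 57.3 and 58.4 CPM in MI+FG-3149 libraries, against 62.2, 77.6, 64.7, 71.6 and 64.8 CPM in MI+IgG libraries. These groups did not overlap (log2 -0.21 ± 0.06, adjusted p = 0.0914), and the gene passed the threshold only without MI+IgG replicate 1. Ifit3 averaged 19.0 ± 2.76 CPM in MI+FG-3149 and 24.1 ± 3.20 CPM in MI+IgG (SD, n = 5 each; log2 -0.34 ± 0.11, adjusted p = 0.162), and Ifi30 averaged 7.34 ± 0.826 CPM in MI+FG-3149 and 9.11 ± 0.770 CPM in MI+IgG (log2 -0.32 ± 0.10, adjusted p = 0.161). Ifitm1 had the most negative value of any member, with 1.54, 2.52, 1.64, 2.61 and 3.09 CPM in MI+FG-3149 libraries, against 2.90, 3.83, 3.10, 3.42 and 5.22 CPM in MI+IgG libraries. The groups overlapped (log2 -0.68 ± 0.23, adjusted p = 0.174).

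Ifih1 was the second member whose groups did not overlap, with 15.8, 15, 15.5, 14.4 and 14.6 CPM in MI+FG-3149 libraries, against 17.6, 17.0, 16.7, 16.5 and 17.4 CPM in MI+IgG libraries (log2 -0.18 ± 0.06, adjusted p = 0.219). The libraries of MI+FG-3149 lay wholly below those of MI+IgG for these 2 members, against 1.24% of all genes, and wholly above for 0, against 1.9%. Besides Ifit2, Ifitm2, Ifit3 and Ifi30, given above, the other members higher in MI+IgG than in Sham had these 95% intervals between MI+FG-3149 and MI+IgG. On the log2 scale they were -0.33 to -0.02 for Irf7, -0.29 to -0.05 for Ifi35 and -0.34 to -0.03 for Ifitm3. Intervals that included 0 were -0.14 to 0.26 for Irf8, -0.30 to 0.26 for Irf5, -0.34 to 0.15 for Isg15 and -0.24 to 0.16 for Oasl2. So did -0.82 to 0.03 for Ifi27l2a, -0.54 to 0.19 for Ifit1, -0.34 to 0.16 for Ifi204 and -0.50 to 0.59 for Mx1. The intervals are not adjusted for the number of genes. These members were chosen as high in the MI+IgG libraries, which this comparison shares.

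The guanylate-binding proteins and the immunity-related GTPases, together called GTPases here, act on the membranes around intracellular pathogens and are classic targets of interferon-gamma. The antiviral effectors Mx1 and Mx2, given above, are not counted among them. These GTPases comprise 9 tested guanylate-binding protein genes, on chromosomes 3 and 5, and 5 tested immunity-related GTPase genes, with Ifi47 among them. None was called in any of the 3 comparisons by edgeR, DESeq2 or limma-voom, and 0 reached an unadjusted p under 0.05. Their summed level was 425 ± 75.3 CPM in MI+FG-3149, 443 ± 129 CPM in MI+IgG and 437 ± 70.5 CPM in Sham (SD, n = 5, 5 and 3; 16 members). The means were close and the spread within groups was wide. The 4 tested Gbp genes on chromosome 3 had a median log2 fold change of 0.23 between MI+IgG and Sham, the 5 on chromosome 5 a median of -0.26, and no gene of either cluster passed. Without MI+IgG replicate 1, however, Gbp9 (log2 -0.46, adjusted p = 0.00905) and Gbp10 (log2 -0.46, adjusted p = 0.0149) were lower in MI+IgG than in Sham, so that 15 members were higher and 3 lower, and Gbp10 was lower in MI+FG-3149 than in Sham (log2 -0.42, adjusted p = 0.0239), as it also was without MI+FG-3149 replicate 1 (log2 -0.55, adjusted p = 0.0393) and with all libraries when only these 2 groups were fitted (log2 -0.43, adjusted p = 0.0256). With that library in the fit, Gbp9 had log2 -0.26 and Gbp10 -0.28 in MI+IgG against Sham.

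The spread within groups was shared by nearly all GTPases. Gbp2 (chromosome 3, 142620663 to 142638008) had 39.2, 25.1, 28.9, 41.0 and 25.5 CPM in MI+FG-3149 libraries, 48.2, 29.4, 34.3, 29.7 and 30.6 CPM in MI+IgG libraries and 23.7, 29.8 and 27.4 CPM in Sham libraries. Igtp (chromosome 11, 58199556 to 58207592) had 36.9, 21.6, 27.1, 23.6 and 19.4 CPM in MI+FG-3149 libraries, 54.9, 20.5, 22.8, 18.4 and 20.3 CPM in MI+IgG libraries and 24.6, 24.9 and 43.8 CPM in Sham libraries. Iigp1, the member with the most reads (chromosome 18, 60376029 to 60392629), had 99.6, 91.7, 133, 84.4 and 81.6 CPM in MI+FG-3149 libraries, 136, 89.3, 96.0, 88.9 and 96.2 CPM in MI+IgG libraries and 78.9, 68.8 and 98.6 CPM in Sham libraries. MI+IgG replicate 1 was the highest of its group for all 14 tested GTPases, at 1.47 to 2.68 times the mean of the other 4 (median 1.71). MI+FG-3149 replicate 1 was the highest of its group for 12 of 14 (median ratio to the others 1.40), and its replicate 5 was the lowest for 10. In Sham, replicate 3 was the highest for 10 and replicate 1 the lowest for 13. Among the 43 other tested members MI+IgG replicate 1 was the highest of its group for 11 and the lowest for 10. For these other members MI+FG-3149 replicate 1 was the highest of its group for 12, and its replicate 5 the lowest for 19. Sham replicate 3 was the highest of its group for 19 of them and Sham replicate 1 the lowest for 20. The low place of MI+FG-3149 replicate 5 and the order of the Sham libraries were thus not confined to the GTPases.

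**Figure D3:**
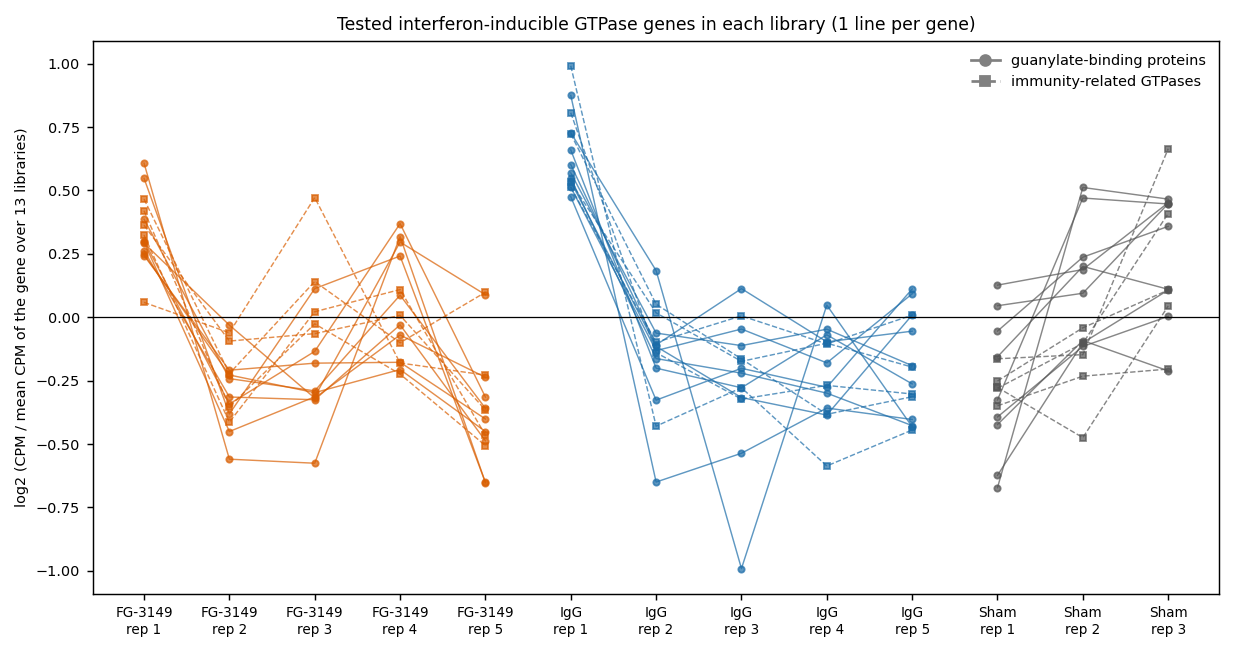
Level of each of the 14 tested GTPase genes in each library, as log2 of CPM over the gene's mean CPM in all 13 libraries, with 1 line per gene (circles for guanylate-binding proteins, squares for immunity-related GTPases). All 14 genes peak in MI+IgG replicate 1 within that group, and replicate 1 of MI+FG-3149 and replicate 3 of Sham also stand high in theirs.

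Stat2 was also highest in replicate 1 of both infarcted groups and in replicate 3 of Sham, with 40.1, 30.9, 26.5, 30.1 and 26.8 CPM in MI+FG-3149 libraries, 37.3, 27.1, 25.1, 29.5 and 26.7 CPM in MI+IgG libraries and 26.0, 28.4 and 34.7 CPM in Sham libraries. The surrounding genes of interferon-gamma signalling and antigen presentation did so too: MI+IgG replicate 1 was the highest of its group for 14 of 17 of them and for 22 of 39 other interferon-induced genes, for 4 of 8 cardiomyocyte markers, 2 of 5 tested monocyte and dendritic cell markers, 1 of 4 tested T cell and NK markers, 1 of 8 endothelial and 1 of 8 fibroblast markers, and 0 of 11 macrophage markers. Sham replicate 3 was the highest of its group for all 17 genes of interferon-gamma signalling and antigen presentation, and also for 6 of 8 endothelial and 6 of 8 fibroblast markers. The GTPase Tgtp1, which is no member and was chosen after its values were seen, had 49.7, 16.6, 17.4, 13.4 and 14.1 CPM in MI+IgG libraries. What sets this library apart was not tested.

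Further genes of the pathway were taken from lists of ligands, receptors and kinases, inhibitors, sensors and targets, chosen with earlier results of these data known. None of the 9 interferon genes found among the gene entries had enough reads to test, and 7 were listed at 0, among them Ifnb1 and 4 Ifna genes. Ifng summed to 2 counts over the 13 libraries and Ifnz to 6. Of 8 receptors and kinases, 2 were higher and 0 lower in MI+IgG than in Sham, while 17.8% of all genes were higher and 15.9% lower. Ifngr1, the ligand-binding chain of the interferon-gamma receptor, averaged 88.0 ± 6.17 CPM in MI+IgG and 61.8 ± 3.56 CPM in Sham (SD, n = 5 and 3; log2 0.51 ± 0.08, adjusted p = 8.10e-05). The kinase gene Tyk2 rose less (log2 0.29 ± 0.09, adjusted p = 0.0172). Of 8 inhibitors 4 were higher and 0 lower, the feedback inhibitor Socs3 (log2 0.90 ± 0.20, adjusted p = 0.00192) and the phosphatases Ptpn6, known from blood cells (log2 0.92 ± 0.16, adjusted p = 0.00024), Ptpn11 and Ptpn1 (0.32 and 0.26). With MI+FG-3149 against Sham, 2 receptors and kinases were higher and 1, Jak1, was lower (log2 -0.19 ± 0.06, adjusted p = 0.0244), and 3 of 8 inhibitors were higher. Of all genes, 15.6% were higher and 13.9% lower in that comparison.

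Of 19 nucleic acid sensors and adaptors, 4 were higher and 0 lower in MI+IgG than in Sham. The counts of this paragraph stand beside the shares of all genes. Those were 17.8% higher and 15.9% lower in MI+IgG, and 15.6% higher and 13.9% lower in MI+FG-3149, each against Sham. The endosomal RNA receptors Tlr7 and Tlr8 had log2 fold changes of 0.91 ± 0.19 and 0.87 ± 0.26 (adjusted p = 0.00146 and 0.0167), and the kinase gene Eif2ak2 (PKR) and the sensor gene Zbp1 had 0.26 and 0.79. Of 39 other interferon-induced genes 8 were higher, 2 were lower and 29 did not pass. Slfn8 averaged 5.88 ± 0.393 CPM in MI+IgG and 2.91 ± 1.24 CPM in Sham (log2 1.00 ± 0.23, adjusted p = 0.00252), and Bst2 (tetherin, which holds budding viruses at the cell surface) rose as well (log2 0.49 ± 0.11, adjusted p = 0.00288). The lower genes were Xaf1 and Parp12 (log2 -0.52 ± 0.16 and -0.19 ± 0.07). Of 17 genes of interferon-gamma signalling and antigen presentation, 5 were higher and 1 was lower. The immunoproteasome subunit Psmb10 led with 63.0 ± 6.52 CPM in MI+IgG and 36.7 ± 1.98 CPM in Sham (log2 0.78 ± 0.10, adjusted p = 2.24e-05), and the proteasome activator Psme1 was lower (log2 -0.29 ± 0.07, adjusted p = 0.00213). Without MI+IgG replicate 1 this list counted 1 higher and 1 lower. In MI+FG-3149 against Sham 3 of the sensors, 6 of the other induced genes and 2 of the interferon-gamma genes were higher, and 0, 1 and 0 were lower; DESeq2 called 6 of the interferon-gamma genes higher, and the sensors and other induced genes called higher numbered 1 and 3 without the Rn45s-rich libraries. Between MI+FG-3149 and MI+IgG, 0 genes of these 5 lists were called by edgeR, DESeq2 or limma-voom, while edgeR called 1.07% of all genes. At an unadjusted p under 0.05 (edgeR) were 3 of the receptors and kinases, 2 of the inhibitors and 0 of the sensors. So were 3 of the other induced genes and 1 of the interferon-gamma genes. The share of all genes at that level was not counted, so these numbers have no background beside them.

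Among leukocyte markers only those of macrophages were called by edgeR, and fibroblast markers, given below, were called as well. Against Sham, 17.8% of all genes were higher and 15.9% lower in MI+IgG. In MI+FG-3149 these shares were 15.6% and 13.9%. Of 11 macrophage markers (such as C1qb, Cd14 and Csf1r) 9 were higher and 0 lower in MI+IgG than in Sham, and in MI+FG-3149 against Sham likewise 9 and 0, or 5 and 0 without the 2 MI+FG-3149 libraries with more than 2% Rn45s. Of these markers 0 were called between MI+FG-3149 and MI+IgG (0 with an unadjusted p under 0.05, and 0 by DESeq2 or limma-voom). Their summed level was 504 to 822 CPM in MI+FG-3149, 475 to 734 CPM in MI+IgG and 355 to 365 CPM in Sham, so that both infarcted groups lay wholly above Sham. The summed level of the 15 members called higher with MI+IgG was 274 to 339 CPM in MI+FG-3149, 343 to 398 CPM in MI+IgG and 232 to 238 CPM in Sham; these members were chosen by that comparison, so the sums are a description. MI+IgG replicate 1 was the lowest of its group in the macrophage sum and the highest in the GTPase sum, and MI+FG-3149 replicate 3 had the highest macrophage sum of all. The part of macrophages, fibroblasts or other cells in the members' changes was not tested.

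**Figure D4:**
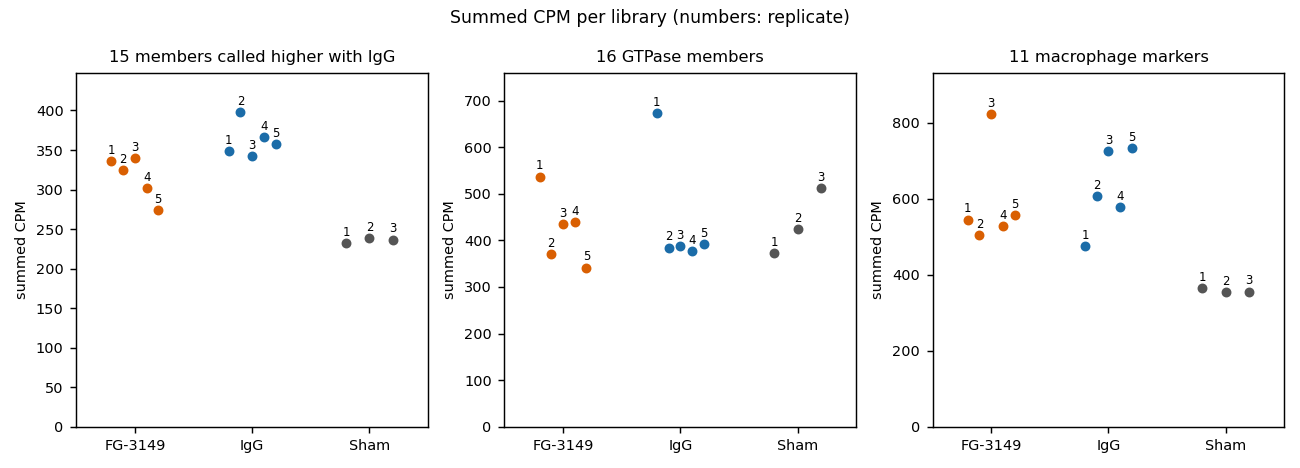
Summed CPM per library of the 15 members called higher with MI+IgG (left), of the 16 GTPase members (middle) and of 11 macrophage markers (right), with replicate numbers beside the points and axes starting at 0. The left and right panels separate Sham from both infarcted groups, and the middle panel shows overlapping groups with MI+IgG replicate 1 on top at 673 CPM.

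Markers of other leukocytes had low levels. The summed level of 12 T cell and NK markers was 7.35 to 9.32 CPM in MI+FG-3149, 5.72 to 8.62 CPM in MI+IgG and 5.82 to 7.62 CPM in Sham, with Trac listed at 0 in an entry that, like that of Rnf213, has no transcript, so that this 0 may not be a measurement. The 5 neutrophil markers summed to 5.49 to 7.64 CPM in MI+FG-3149, 5.07 to 10.6 CPM in MI+IgG and 5.28 to 8.43 CPM in Sham, with Ly6g listed at 0 in the same way, and the 8 monocyte and dendritic cell markers to 10.0 to 16.5 CPM in MI+FG-3149, 10.7 to 17.1 CPM in MI+IgG and 11.9 to 13.0 CPM in Sham. No gene of these 3 lists was called by edgeR, DESeq2 or limma-voom, and 0 reached an unadjusted p under 0.05. The 4 B cell markers summed to 5.12 to 8.13 CPM in MI+FG-3149, 4.76 to 8.90 CPM in MI+IgG and 9.36 to 10.3 CPM in Sham. Of these 4 markers 0 were called by edgeR or DESeq2, and limma-voom called 1 lower in MI+IgG than in Sham. In that comparison 2 had an unadjusted p under 0.05 (edgeR), and the share of all genes at that level was not counted. Of 8 fibroblast markers 7 were higher and 0 lower in each infarcted group than in Sham (4 higher for MI+FG-3149 without the Rn45s-rich libraries), and 1 was lower in MI+FG-3149 than in MI+IgG. The fibroblast markers summed to 3449 to 4104 CPM in MI+FG-3149, 3531 to 4932 CPM in MI+IgG and 2536 to 2690 CPM in Sham. As with the macrophage sum, both infarcted groups lay wholly above Sham. Of 8 endothelial markers 1 was higher and 2 were lower in MI+IgG than in Sham, and 1 was higher and 4 were lower in MI+FG-3149 than in Sham (2 lower without the Rn45s-rich libraries). The 8 cardiomyocyte markers that identify the tissue summed to 78263 to 86360.5 CPM in MI+FG-3149, 74874 to 82026 CPM in MI+IgG and 88974 to 96576 CPM in Sham, and 5 of 8 were lower in each infarcted group than in Sham, 0 higher.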

How the data were processed

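RNA was sequenced from 13 mouse heart libraries. The authors deposited estimated counts per gene, not normalized; 79.4% of values lay within 0.01 of a whole number, and they were rounded. They also deposited RPKM values per transcript, summed here per gene for levels compared between genes. The build was mm10 per the submitters' processing notes; the aligner, the counter and the handling of multiply matching reads are not given in the sources used here. Coordinates are those of the count table. Of 36172 gene entries, 379 that repeat a symbol were dropped.

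Groups and replicate numbers came from the sample titles. Whether the libraries of a group come from separate animals is implied only by the design text, so p-values measure the spread between these libraries. Genes passing filterByExpr (13434) were fitted in edgeR 4.0.16 (R 4.3.3, TMM scaling, robust quasi-likelihood, all 13 libraries, no covariate), with Benjamini-Hochberg adjustment over all of them and calls under 0.05. SE is the absolute log2 fold change over the square root of F. The 95% intervals use a normal quantile with this SE, so they are somewhat narrower than the F test would give. Only the edgeR fit was run on simulated counts with known changes. These had a common dispersion for all genes, a simpler spread than that of the data. Alternatives used limma 3.58.1, DESeq2 1.42.0, a log2(RPKM + pseudocount) scale, other filters, fewer groups and the omission of each library. A planned correlation between members across libraries is replaced by the order of the libraries.

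The members and gene lists were chosen with earlier results of these data known. The values of 2 tested members, which stay in the counts, are not reported here. Any other member could be named, with values per library for called members, transcription factors, abundant members and a fixed set of known targets; of other lists, up to 5 called genes with the smallest p. Same-numbered libraries of different groups had residual correlations of -0.042 to 0.178, above 0.1 in 2 of 11 pairs, so the numbers were not taken as pairs.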

Additional observations from a re-analysis of the deposited data

Results flagged for a closer look

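Libraries that stood far from the others of their group were looked for in the MI+FG-3149 and MI+IgG libraries of 55 tested members, 110 groups of 5 libraries, by the gap to the nearest library relative to the group's range. Chance gives about 1 in 20 such groups, and 13 were found, of which 10 were MI+IgG replicate 1 standing above its group. These were Gbp2 at 48.2 CPM, Gbp3 at 30.7 CPM, Gbp4 at 57.2 CPM, Gbp7 at 50.1 CPM, Gbp9 at 52.3 CPM, Igtp at 54.9 CPM, Iigp1 at 136.5 CPM, Irgm1 at 49.4 CPM, Irgm2 at 72.2 CPM and Rsad2 at 42.0 CPM. The members are not independent of one another, and the 10 values come from 1 library.

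The remaining 3 values came from 3 libraries. Ifit2 was low in MI+IgG replicate 3, at 29.9 CPM against 33.5 to 33.8 CPM in the other 4. Ifi27l1 was low in MI+FG-3149 replicate 5, at 25.7 CPM against 28.6 to 29.7 CPM. Irf5 was high in MI+FG-3149 replicate 3, at 8.825 CPM against 5.58 to 6.26 CPM, the library with the highest summed macrophage markers.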

How the results depend on the processing

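The counts of genes and members called and the values of each member were recomputed under 24 alternatives, 23 planned and 1 chosen after seeing the data. The other gene lists were recomputed under 4 of them, and the sums, library orders and promoter counts under none. Over these, no called value changed direction; 208 of 4101 values of members changed sign, none of them a called value. Of the calls, 14 of 16 between MI+IgG and Sham held everywhere (not Mx1 and Ifit1), 8 of 14 between MI+FG-3149 and Sham, and 0 of 1 between MI+FG-3149 and MI+IgG. The 144 genes called between MI+FG-3149 and MI+IgG became 276 with DESeq2, 83 with only those 2 groups fitted, 68 without the 2 MI+FG-3149 libraries that had more than 2% Rn45s, and 68 (without MI+IgG replicate 2) to 271 (without MI+IgG replicate 1) when single libraries were left out. The count of 1 member called there became 0 with only 2 groups fitted, on log2(RPKM + 1) and on log2(RPKM + 0.1). It was 0 without the Rn45s-rich libraries, and 0 to 1 when single libraries were left out. Without MI+IgG replicate 1 the member called was Ifitm2 in place of Ifit2. The cause of these changes was not tested.

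With a replicate block in the fit, 215 genes were called between MI+FG-3149 and MI+IgG, 4139 between MI+IgG and Sham and 3576 between MI+FG-3149 and Sham, and members called numbered 1, 18 and 16 in these comparisons. The libraries share only a number, so the block is not taken as a pairing. The 11 members with too few reads could not be tested, and whether depth or low expression was the reason was not examined.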
